A study of Mus musculus with 9 samples.

Results

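The genes described here encode the proteins of the mitochondrial ribosome. They were taken as every listed gene whose symbol begins with Mrpl or Mrps followed by a digit, which gave 77 genes of 24341, 48 with Mrpl symbols and 29 with Mrps symbols. RNA-Seq had been run on mouse embryonic fibroblasts (MEFs), cells grown out of mouse embryos, of strain C57BL/6. There were 9 samples of 3 genotypes, 3 labelled WT, 3 labelled Atm-/- and 3 labelled Sirt6-/-, and no treatment of the cells was given for any of them. ATM is the kinase that signals DNA double-strand breaks, and SIRT6 is a nuclear deacetylase of histone H3. The labels also name P53-/- and Atm-/-P53-/- mice among the sources of the MEFs without saying which samples came from them, and the study's methods describe immortalized Atm-/-;p53-/- MEFs and Sirt6-/- MEFs that came from different laboratories. Genotype and cell line cannot therefore be told apart, nor can loss of Atm and loss of p53. Nothing states whether the 3 samples of a genotype were separate cultures, so the p-values measure only the spread between these samples.

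The mitochondrial ribosome makes the few proteins that are encoded by mitochondrial DNA, all of them core subunits of the respiratory chain or of ATP synthase. Its RNAs are transcribed inside the organelle, but each of its proteins is encoded in the nucleus, made in the cytosol and imported. The small subunit decodes the mRNA, the large subunit forms the peptide bond, and in mammals both have gained proteins that bacteria lack while losing much of their RNA. Nuclear genes of this kind often carry binding sites for NRF1, for the ETS factor GABP or for YY1 near their starts.

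Of the 77 genes, 50 encode large subunit proteins and 26 small subunit proteins. Mrps30 and Mrps18a are counted with the large subunit, where their proteins sit despite the S in their names. Mrps36 stands apart because its product is now known as a component of the 2-oxoglutarate dehydrogenase complex. By an origin assigned from general knowledge, 44 genes were counted as encoding proteins with a bacterial counterpart. Another 31, Mrpl47 among them, were counted as particular to mitochondria, and Mrpl55 and Mrps36 were not assigned. No protein sequences were compared for this, so single genes can be misplaced.

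Each sample had 32187040 to 33837949 counted reads, and 3 reads then correspond to 0.0887 to 0.0932 CPM, the counts scaled to library size. Reads of Sirt6 in the samples labelled Sirt6-/- came to 0.123, 0.154 and 0.210 normalised CPM, against 12.8 to 15.3 in WT. Reads of Atm went against the label, at 109, 102 and 102 normalised CPM in the samples labelled Atm-/- and 48.2 to 51.7 in WT. Counts per gene do not show which exons were read, so "Atm-/-" below stands for the samples so labelled, and every direction given for them carries this limit. Trp53, which encodes p53, was at 23.2 to 27.4 normalised CPM there and at 208 to 227 in WT. Fibroblast identity was checked on 10 markers, of which 10 reached 1 RPKM in WT, 10 in Atm-/- and 9 in Sirt6-/-, where Thy1 was at 0.271. Their summed level was 6854 to 7230 RPKM in WT, 3434 to 3466 in Atm-/- and 7177 to 7222 in Sirt6-/-. Single markers moved in both directions under these sums. In Sirt6-/- the mean RPKM of Col1a1, Col3a1 (207 against 377 in WT), Vim, Pdgfra, Thy1 and Fn1 lay below WT. Those of Col1a2, Pdgfrb (35.8 against 13.5), S100a4 and Fbln1 lay above it. In Atm-/- Thy1 (52.8 against 13.3) and Fbln1 (20.7 against 2.85) lay above WT. The other markers lay below it there, such as Col3a1 (20.6 against 377). Of 5 leukocyte markers Ptprc, Emr1 and Cd3e stayed under 0.1 RPKM in every sample, but Cd68 and Lyz2 were above 1 in each genotype, and the list summed to 6.32 to 6.60 RPKM in WT, 5.46 to 6.29 in Atm-/- and 4.61 to 5.29 in Sirt6-/-. Of 4 endothelial markers Pecam1 and Tek stayed under 0.1, and the list summed to 0.555 to 0.947 in WT, 1.89 to 2.43 in Atm-/-, mostly from Kdr, and 0.156 to 0.228 in Sirt6-/-. Of 4 muscle markers Myod1, Myog and Ckm stayed under 0.1, and the list summed to at most 0.470 in any sample. The 5 neural markers summed to 1.47 to 1.60 RPKM in WT, 27.5 to 32.5 in Atm-/- and 26.1 to 27.6 in Sirt6-/-, with Rbfox3 and Gfap near 0, and the part of these lists in the results was not tested. WT replicate 2 differed most from its partners, with a chi-square per gene of 16.4 and 15.1 where all other pairs of one genotype had 5.24 to 6.88. Without it 35 of the 77 genes were called higher and 19 lower in Atm-/-, and 12 higher and 42 lower in Sirt6-/-, beside the counts over all samples given below. Shares of all tested genes are not given for these fits, so the counts do not set the members beside other genes.

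The starts of 6 genes on which the results turn are shown first. They are the genes with some of the largest rises in Atm-/- (Mrps30, Mrps27, Mrpl45), 1 gene called in opposite directions in the knockouts (Mrpl22), and the genes with the largest falls in Sirt6-/- (Mrpl33, Mrps18b). Each sequence runs from 120 bases before the RefSeq start to 25 bases after it, 145 bases in all, on build GRCm38.p6 and in the direction of the gene. Capitals mark letters of a searched motif on either strand, namely NRF1 (GCGCATGC), ETS/GABP (CCGGAAG), YY1 (AAGATGGC), E-box (CACGTG), Sp1 (GGGCGG) and CRE (TGACGTCA). Mrps30 lies at chr13:118387228-118387372 on the minus strand, Mrpl45 at chr11:97315596-97315740 and Mrps27 at chr13:99344666-99344810 on the plus strand. Mrpl22 lies at chr11:58171544-58171688 and Mrpl33 at chr5:31613831-31613975 on the plus strand, and Mrps18b at chr17:35916416-35916560 on the minus strand.
Mrps30: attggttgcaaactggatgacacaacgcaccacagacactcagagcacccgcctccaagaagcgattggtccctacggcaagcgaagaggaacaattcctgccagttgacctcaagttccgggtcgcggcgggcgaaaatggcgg
Mrpl45: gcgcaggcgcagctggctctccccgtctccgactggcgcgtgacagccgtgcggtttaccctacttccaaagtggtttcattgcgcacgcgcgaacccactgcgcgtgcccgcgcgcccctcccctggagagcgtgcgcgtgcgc
Mrps27: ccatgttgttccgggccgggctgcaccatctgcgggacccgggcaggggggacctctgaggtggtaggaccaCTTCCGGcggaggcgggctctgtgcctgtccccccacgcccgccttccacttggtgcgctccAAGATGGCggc
Mrpl22: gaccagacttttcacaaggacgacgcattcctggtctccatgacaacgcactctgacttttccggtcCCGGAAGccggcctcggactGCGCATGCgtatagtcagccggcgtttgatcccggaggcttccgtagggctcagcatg
Mrpl33: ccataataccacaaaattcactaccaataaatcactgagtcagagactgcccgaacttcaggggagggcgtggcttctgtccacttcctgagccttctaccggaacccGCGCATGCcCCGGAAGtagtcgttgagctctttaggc
Mrps18b: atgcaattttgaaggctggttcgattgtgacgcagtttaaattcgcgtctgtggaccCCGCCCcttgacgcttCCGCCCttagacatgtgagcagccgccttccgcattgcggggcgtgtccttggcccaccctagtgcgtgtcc

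The windows differed in the letters they hold. Mrpl22 and Mrpl33 each hold 1 NRF1 and 1 ETS/GABP string, Mrps27 holds 1 ETS/GABP and 1 YY1 string, Mrps18b holds 2 Sp1 strings, and Mrps30 and Mrpl45 hold none of the searched strings. Over the wider window of 250 bases before to 50 after the start, RefSeq's table had a promoter for 68 of the 77 genes and for 10303 of the genes tested in these samples. The ETS/GABP string was in 24 of the 68 promoters (35.3%, against 17.4% of tested genes and 9.12% of all promoters in the table). NRF1 was in 8 (11.8%, against 5.29% and 2.80%) and YY1 in 12 (17.6%, against 4.63% and 2.88%). Sp1 was in 34 of the 68 (50%, against 64.5% and 35.9%), E-box in 5 (7.35%, against 10.2% and 7.24%) and CRE in 2 (2.94%, against 3.28% and 1.88%). The promoters of these genes thus held the ETS/GABP, NRF1 and YY1 letters more often than those of tested genes and the Sp1 letters less often, as counts with no test. The median GC content was 58.2% against 61.0% in tested genes. Among the 9 promoters of genes called higher in both knockouts, 1 held the Sp1 string, 2 the YY1 and 2 the ETS/GABP string. Among the 13 of genes called lower in both, 8 held the Sp1 string (61.5%, near the share of tested genes), 0 the YY1 and 5 the ETS/GABP string. Among the 8 of genes higher in Atm-/- and lower in Sirt6-/-, 3 held the Sp1 string, 3 the YY1 and 2 the ETS/GABP string. These sets are small, and no difference between them was tested.

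In WT MEFs the 77 genes were well expressed. RPKM, reads per kilobase of transcript scaled to library size, allow levels to be compared between genes. The median over the 77 genes was 33.6 RPKM in WT, which lay above 81.1% of the 13283 genes tested, whose median was 8.91. Levels ran from 6.28 ± 0.359 RPKM (SD, n = 3) for Mrps25 to 141 ± 11.0 for Mrpl12, a range of 22.5-fold. Proteins of one particle are used in equal numbers, except for the several copies of the stalk protein encoded by Mrpl12. The highest levels in WT after Mrpl12 were those of Mrpl52 (133 ± 15.3), Mrpl18 (122 ± 6.39), Mrpl33 (91.6 ± 6.75) and Mrpl13 (90.2 ± 1.35). Among neighbours in this order, Mrpl12 and Mrpl52, Mrpl52 and Mrpl18, and Mrpl33 and Mrpl13 each differed by less than the larger of their SDs, and Mrpl18 and Mrpl33 by more. The lowest levels besides Mrps25 were those of Mrpl1 (8.34 ± 0.621), Mrpl35 (8.94 ± 0.227), Mrpl17 (8.96 ± 0.110) and Mrpl41 (10.6 ± 1.12), and the first 3 of these did not differ beyond their spread. The length listed for a gene enters its RPKM, and the listed length was 6065 bases for Mrps25 and 949 for Mrpl12.

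**Figure D1:**
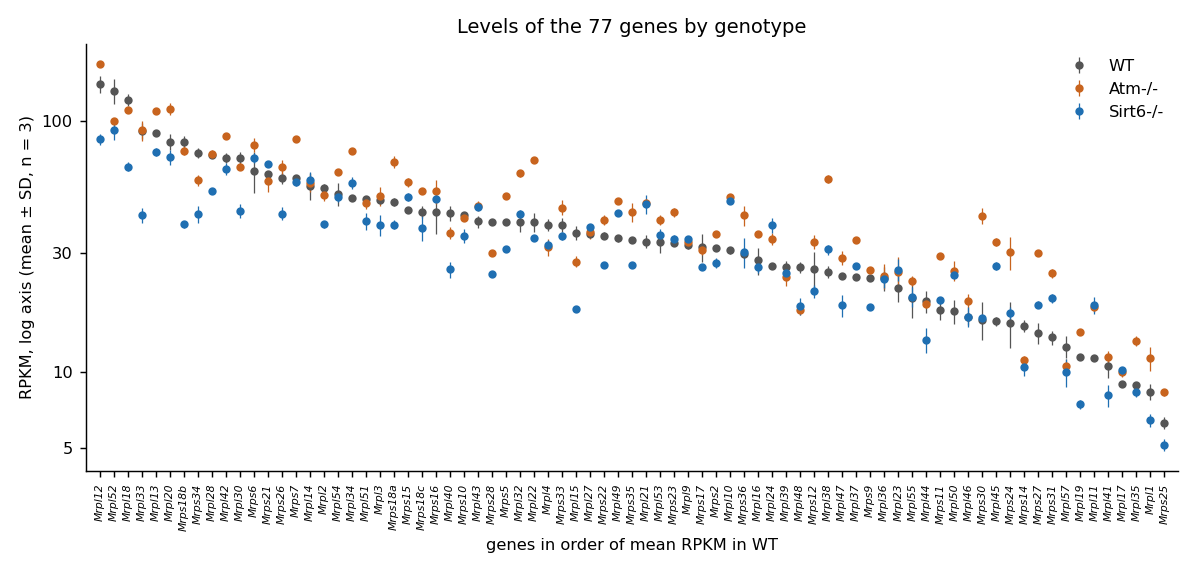
Mean RPKM (log axis) of each of the 77 genes in WT, Atm-/- and Sirt6-/- MEFs, with SD over 3 samples as bars, in order of the WT level. The WT points fall from 141 (Mrpl12) to 6.28 RPKM (Mrps25), and the points of the knockouts follow this order with gene by gene shifts, such as those of Mrpl38 and Mrps30 upwards in Atm-/- and of Mrpl33 and Mrps18b downwards in Sirt6-/-.

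This order was largely kept in the other genotypes. Across the 77 genes, the rank correlation of mean RPKM was 0.90 between WT and Atm-/-, 0.89 between WT and Sirt6-/- and 0.92 between the knockouts; genes are not independent replicates and the values share gene length. The median was 41.2 RPKM in Atm-/- and 32.3 in Sirt6-/-. RPKM are scaled to library totals without TMM factors, which were 0.94 to 0.95 in WT and 1.05 in Atm-/-. Differences in RPKM between genotypes are therefore not the fold changes of the fits below. Mrpl12 stayed highest in Atm-/- (170 ± 0.769), where it was not called against WT (1.07-fold in the fit). In Sirt6-/- Mrpl52 (92.1 ± 7.72) and Mrpl12 (84.7 ± 4.42) led. Together the 77 genes took 0.320 to 0.334% of all counted reads in the WT samples, 0.384 to 0.391% in Atm-/- and 0.285 to 0.291% in Sirt6-/-, without overlap between genotypes. These shares, too, are taken of library totals without TMM factors. In normalised CPM the genotypes lay closer for Atm-/- and WT, with sums of 3643 to 3716 and 3377 to 3541, and Sirt6-/- had 2827 to 2906. In bulk RNA, fewer cells with a transcript and less of it per cell cannot be told apart.

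Atm-/- MEFs differed from WT MEFs in both directions. Of the 77 genes, 30 were higher and 18 were lower at an adjusted p under 0.05, and 29 were not called. That is 39.0% higher and 23.4% lower, where 34.7% of all tested genes were called higher and 33.6% lower. The median log2 fold change was 0.10 for the 77 genes and 0.02 for all genes tested. This split depends on scaling. With library totals in place of TMM factors, 45 were higher and 10 lower. The share of higher among called genes went from 62.5% to 81.8% for the members and from 50.8% to 64.9% over all tested genes. The median of all genes moved up by 0.16 on the log2 scale.

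Mrps30 showed the largest rise in Atm-/-. Its product is a large subunit protein without a bacterial counterpart, and the gene lies at chr13:118378381-118387252 on the minus strand in GENCODE M21. The 3 samples of Atm-/- had 63.1, 59.3 and 68.5 normalised CPM, those of WT 21.9, 30.5 and 29.6, and those of Sirt6-/- 25.6, 25.9 and 26.9. All Atm-/- samples thus lay above all others, while WT and Sirt6-/- overlapped. The log2 fold change in Atm-/- was 1.21 (SE 0.10, adjusted p = 9.73e-08), 2.31-fold. B430218F22Rik overlaps Mrps30 on the opposite strand, as other genes do for 31 of the 77 (6 overlap a gene on their own strand), and the strand setting of the counting is not given in the sources used here.

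Mrpl38, another large subunit protein of mitochondria alone, had 78.2, 82.5 and 77.2 normalised CPM in Atm-/-, 39.3, 38.5 and 35.2 in WT and 45.1, 41.4 and 43.9 in Sirt6-/-. It was 2.10-fold higher in Atm-/- than in WT (log2 1.07, SE 0.06, adjusted p = 1.39e-09), and the Sirt6-/- samples lay between the other genotypes. Mrps27, a small subunit protein of the pentatricopeptide repeat family, rose from 25.8, 27.3 and 31.0 in WT to 51.9, 52.7 and 53.0 in Atm-/- (log2 0.90, SE 0.07, adjusted p = 7.00e-08). Mrpl45 encodes a protein near the exit of the peptide tunnel that faces the inner membrane, and rose from 39.5, 42.9 and 41.4 to 74.6, 80.1 and 75.2 (log2 0.89, SE 0.06). Next came Mrps24 (log2 0.77), Mrps31 (0.69), Mrpl22 (0.66) and Mrps11 (0.56). Mrps24 has on its own strand an overlapping gene, Urgcp, whose log2 fold change was 0.50, and the 2 cannot be fully separated.

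The genes that fell in Atm-/- changed less. Mrpl48, a large subunit protein, fell from 25.8, 23.9 and 26.3 normalised CPM in WT to 15.7, 15.9 and 14.6 in Atm-/-, 1.65-fold lower (log2 -0.72, SE 0.09, adjusted p = 3.49e-06). Mrps14, a small subunit protein shared with bacteria, fell from 30.2, 32.3 and 33.4 to 20.5, 21.9 and 20.5 (log2 -0.62). The groups did not overlap for either gene. Rab6a, which overlaps Mrpl48 on the opposite strand, had a log2 fold change of -0.38. The others of the 8 largest falls were Mrps28 (-0.58), Mrpl52 (-0.56), Mrpl15 (-0.55), Mrps34 (-0.53), Mrpl4 (-0.46) and Mrpl40 (-0.42). All 8 genes were also lower in Sirt6-/- than in WT, and both comparisons use the same WT samples.

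In Sirt6-/- MEFs most called genes were lower than in WT. Of the 77 genes 43 fell, 10 rose and 24 were not called, that is 55.8% lower and 13.0% higher, where 37.4% of all tested genes were lower and 39.2% higher. The median log2 fold change was -0.23, against 0.02 for all genes tested, and 53 of the 77 values were below 0. With library totals 37 fell and 14 rose, with a median of -0.14. The median of all genes then moved up by 0.09, with 32.7% of them lower and 43.9% higher.

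Mrpl33 showed the largest fall. It encodes a small protein of the large subunit that bacteria share, and its promoter is the one above with adjoining NRF1 and ETS/GABP strings. Its level was 43.5, 49.2 and 43.1 normalised CPM in WT, 39.0, 45.3 and 38.3 in Atm-/- and 18.1, 20.02 and 21 in Sirt6-/-. The Sirt6-/- samples lay apart from all others, and WT and Atm-/- overlapped. Against WT it was 2.30-fold lower (log2 -1.20, SE 0.08, adjusted p = 5.26e-09). Rbks overlaps it on the opposite strand, and had a log2 fold change of -0.47.

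Mrps18b had 87.6, 92.8 and 97.4 normalised CPM in WT, 80.1, 73.7 and 76.6 in Atm-/- and 40.2, 42.2 and 40.1 in Sirt6-/-. It encodes 1 of the related S18 proteins of mammalian mitochondria, and was 2.27-fold lower in Sirt6-/- (log2 -1.18, SE 0.06, adjusted p = 1.61e-10). Mrpl15, whose bacterial counterpart lies in the core of the large subunit, went from 74.2, 77.3 and 68.0 in WT to 53.2, 49.3 and 48.6 in Atm-/- and to 33.5, 34.1 and 35.1 in Sirt6-/-. The 3 genotypes did not overlap for Mrpl15 or Mrps18b, with Atm-/- between the other genotypes in both. Mrpl18, which encodes a protein of the central protuberance, was at 127, 129 and 116 in WT and at 60.2, 65.4 and 64.1 in Sirt6-/- (log2 -0.97, SE 0.06). Tcp1, a chaperonin gene that overlaps Mrpl18 on the opposite strand, had a log2 fold change of -0.65.

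Mrpl12 encodes the stalk protein that recruits translation factors and also binds the mitochondrial RNA polymerase. It was at 136, 155 and 135 normalised CPM in WT, 154, 153 and 153 in Atm-/- and 82.6, 82.3 and 75.9 in Sirt6-/-, 1.77-fold lower in Sirt6-/- than in WT (log2 -0.82, SE 0.06, adjusted p = 1.34e-08). The remaining large falls were those of Mrps34 (log2 -0.90), Mrpl40 (-0.83) and Mrpl30 (-0.79). Mrps34 shares its strand with the overlapping gene Nme3, whose log2 fold change was -0.79.

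A smaller set rose in Sirt6-/-. Mrpl45 went to 64.95, 65.9 and 62.1 normalised CPM, 1.56-fold above the WT values given above (log2 0.64, SE 0.06, adjusted p = 2.00e-07). Mrpl11 and Mrpl10 encode proteins of the stalk base. Mrpl11 had 35.4, 35.6 and 34.03 in WT and 48.4, 55.9 and 56.1 in Sirt6-/- (log2 0.61). Mrpl10 had 56.2, 52.8 and 54.8 in WT, 82.3, 80.8 and 79.2 in Sirt6-/- (log2 0.57) and 79.99, 78.8 and 81.4 in Atm-/- (log2 0.55), so that the knockouts overlapped above WT. Within the stalk, then, the genes of its base rose in both knockouts while Mrpl12 fell in Sirt6-/-. Mrpl24 (0.45), Mrps31 (0.43), Mrpl21 (0.41), Mrpl50 (0.40) and Mrps27 (0.29) followed. On the opposite strand Rrnad1 overlaps Mrpl24 and Ighmbp2 overlaps Mrpl21. Their log2 fold changes were 0.77 and 0.79, and the strand setting of the counting is not given.

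**Figure D2:**
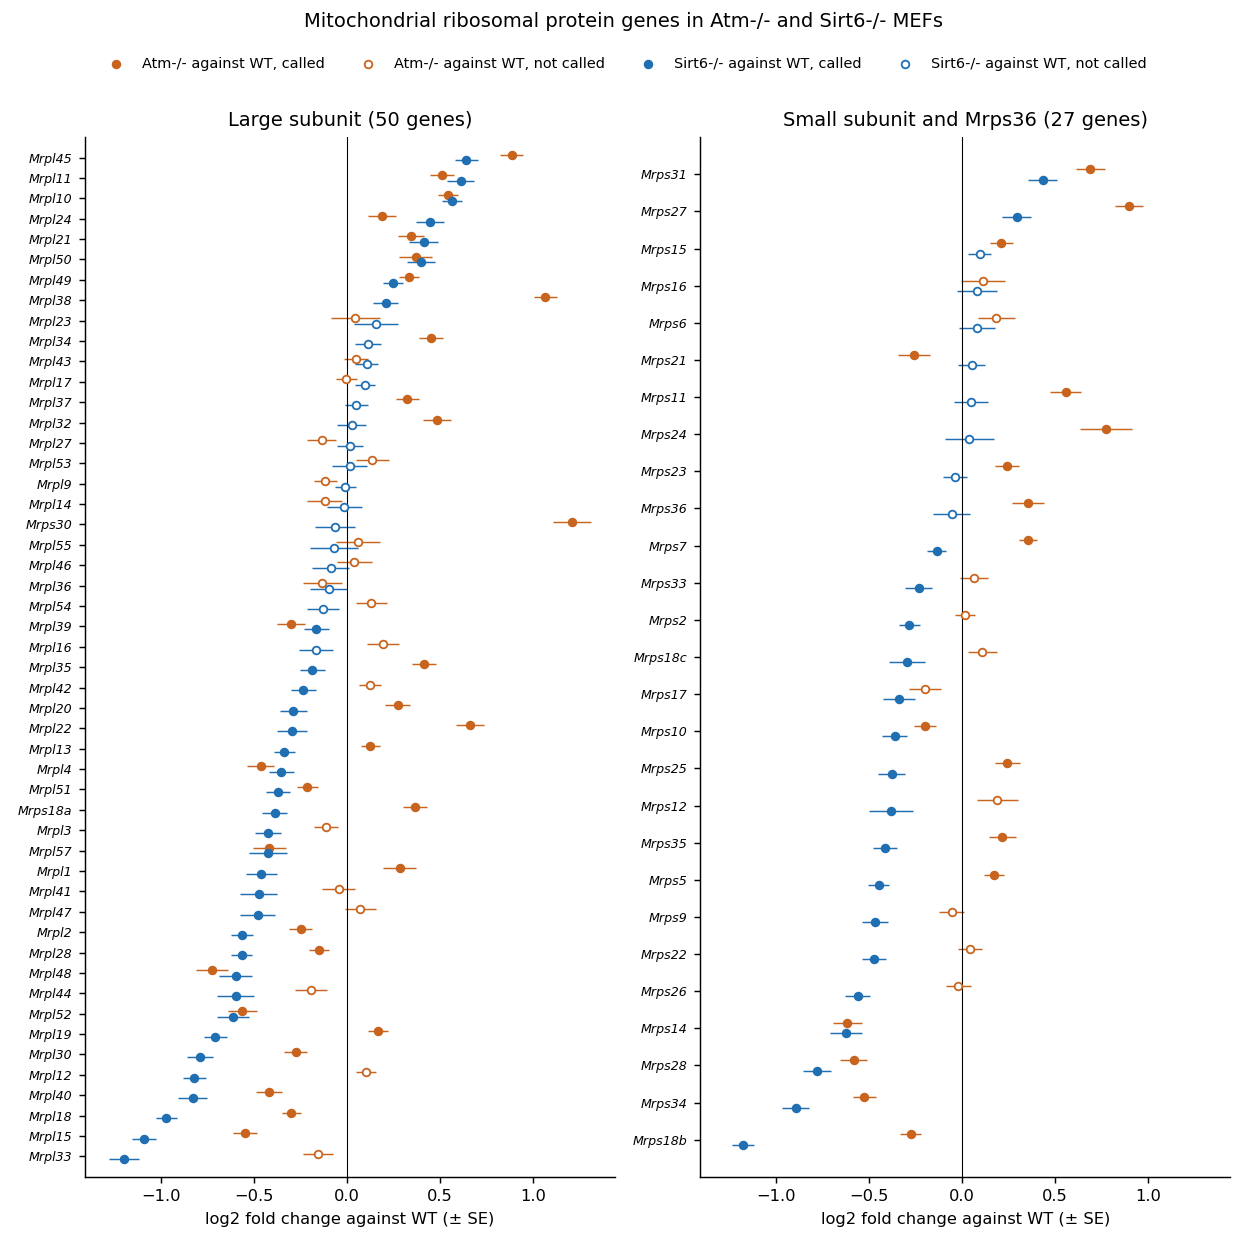
log2 fold change against WT, with its SE as a bar, of every gene in Atm-/- (orange) and Sirt6-/- MEFs (blue), in order of the Sirt6-/- value, for the large subunit at the left and the small subunit with Mrps36 at the right. Filled points are called at an adjusted p under 0.05. The blue points reach from -1.20 (Mrpl33) to 0.64 (Mrpl45), and most orange points lie to the right of the blue point of the same gene.

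The knockouts were next compared with each other directly, which tests whether their differences from WT differ. Of the 77 genes 51 were lower in Sirt6-/- than in Atm-/-, 2 were higher and 24 were not called. The shares were 66.2% lower and 2.60% higher, against 38.0% and 37.8% of all genes tested, and the median log2 difference was -0.33, against 0.00. With library totals 55 were lower and 2 higher, where 41.2% of all genes were lower and 34.8% higher. Mrps21 (log2 0.30) and Mrpl24 (0.24) were the higher ones, and Mrpl24 was not called without Sirt6-/- replicate 3 (adjusted p = 0.0505). Rrnad1, which overlaps Mrpl24 on the opposite strand, had a log2 difference of 0.61.

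Mrps30 also led here, with Sirt6-/- 2.45-fold below Atm-/- (log2 -1.29, SE 0.07, adjusted p = 2.58e-13). Mrpl33 (-1.06), Mrpl22 (-0.97), Mrpl12 (-0.94), Mrps18b (-0.92), Mrpl19 (-0.89), Mrpl38 (-0.87) and Mrps18a (-0.77) came next. They reached this difference in different ways, as the plot of values by sample shows. Mrps30 and Mrpl38 were high in Atm-/-, Mrpl33, Mrps18b and Mrpl12 were low in Sirt6-/-, and Mrpl22, Mrpl19 and Mrps18a did both.

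**Figure D3:**
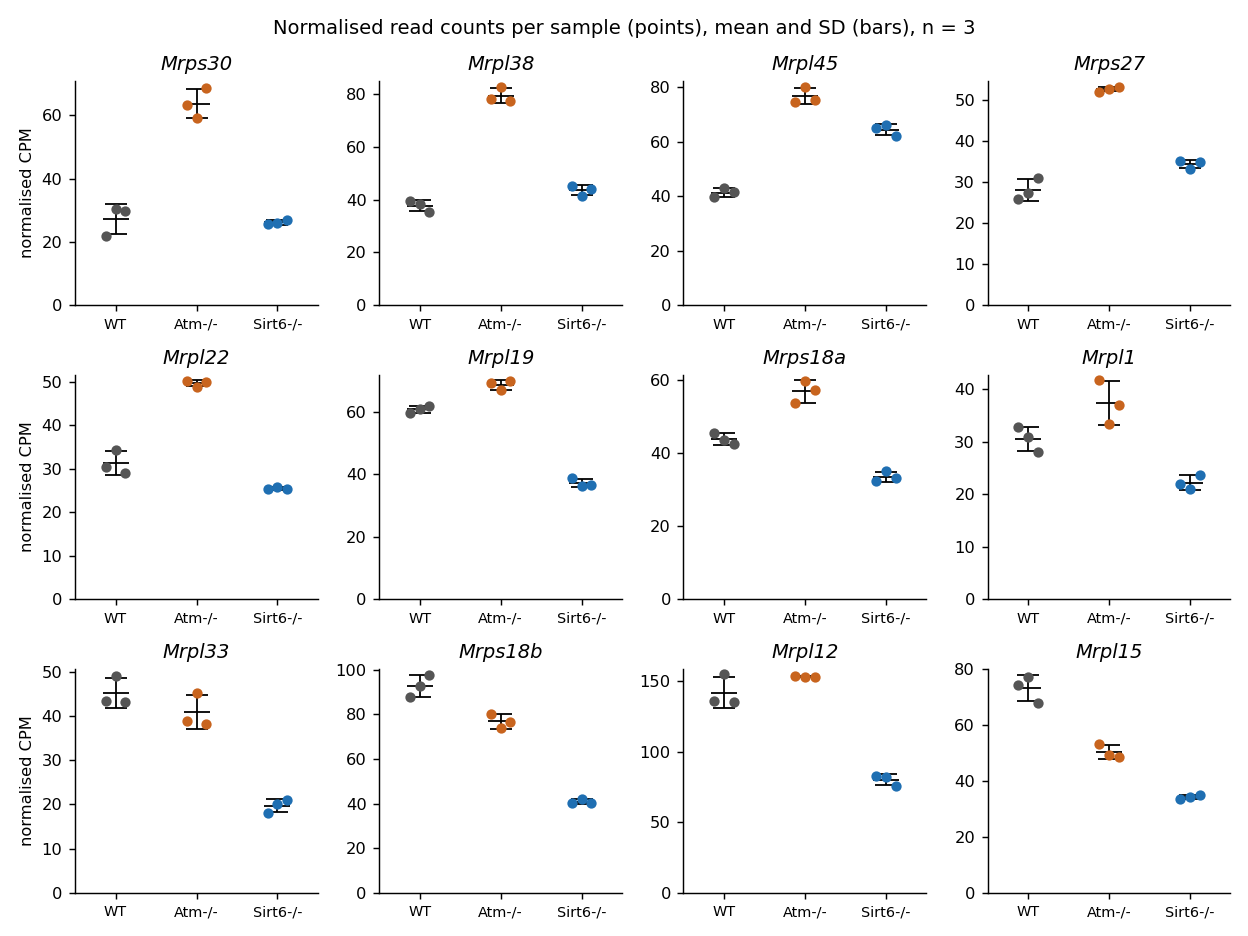
Normalised CPM of 12 genes in each sample (points), with mean and SD over 3 samples (black), on axes that start at 0. Mrps30 and Mrpl38 stand out in Atm-/-, Mrpl22, Mrpl19, Mrps18a and Mrpl1 run from Sirt6-/- through WT to Atm-/-, and Mrpl33, Mrps18b and Mrpl12 are lowest in Sirt6-/-.

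Calls against WT were then set side by side, with the reminder that both use the same WT samples. Genes called higher in Atm-/- and lower in Sirt6-/- numbered 11, where 6.25% of all genes tested in both showed this. None of the 77 was called lower in Atm-/- and higher in Sirt6-/-, where 6.17% of all genes were. A further 17 were lower in both knockouts (22.8% of all genes) and 10 were higher in both (20.0%), the latter being Mrpl10, Mrpl11, Mrpl21, Mrpl24, Mrpl38, Mrpl45, Mrpl49, Mrpl50, Mrps27 and Mrps31. Of these, Mrpl38 was not called in Sirt6-/- without Sirt6-/- replicate 1 (adjusted p = 0.0567) or WT replicate 3 (0.0895), and Mrpl24 was not called in Atm-/- without Atm-/- replicates 1 (0.0849) or 2 (0.102) or WT replicates 1 (0.0705) or 3 (0.0851), nor with a replicate block (0.0519), the DESeq2 Wald test (0.0503) or no filter on low counts (0.0538). The other genes were 15 called lower in Sirt6-/- and not called in Atm-/- (9.42% of all genes), 9 called higher in Atm-/- and not called in Sirt6-/- (6.75%), 1 called lower in Atm-/- and not called in Sirt6-/- (5.84%; Mrps21, which lost the call without Atm-/- replicates 1 or 3 or WT replicate 3 and with library totals) and 14 called in neither (11.1%). None was called higher in Sirt6-/- and not called in Atm-/- (11.7%). With library totals 10 genes were lower in both knockouts, 14 higher in both and 14 higher in Atm-/- and lower in Sirt6-/-, while 17 were higher in Atm-/- and 13 lower in Sirt6-/- without a call in the other knockout, and 9 were called in neither. The shares of all genes above belong to the TMM calls, and none are given for these counts. Of the 14 not called in the first place, Mrpl17, Mrpl55 and Mrpl46 moved least, with log2 fold changes of 0.00, 0.06 and 0.04 in Atm-/- and 0.10, -0.07 and -0.09 in Sirt6-/-.

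Mrpl22, whose protein lines the peptide tunnel, was the clearest gene of opposite calls. It had 30.4, 34.4 and 29.0 normalised CPM in WT, 50.2, 49.0 and 50.04 in Atm-/- and 25.3, 25.8 and 25.3 in Sirt6-/-, without overlap. Mrpl19, a large subunit protein shared with bacteria, was at 59.6, 60.8 and 62.0 in WT, 69.3, 66.9 and 69.7 in Atm-/- and 38.8, 36.1 and 36.6 in Sirt6-/-. Mrps18a, the S18 protein of the large subunit, was at 45.5, 43.6 and 42.3 in WT, 53.6, 59.8 and 57.1 in Atm-/- and 32.3, 35.0 and 33.1 in Sirt6-/-. In all 3 genes every Sirt6-/- sample lay below every WT sample and every WT sample below every Atm-/- sample. This order without overlap held for 13 of the 77 genes (16.9%), where 7.57% of all genes showed it. Gcfc2, which overlaps Mrpl19 on the opposite strand, had log2 fold changes of -0.17 in Atm-/- and -0.72 in Sirt6-/-.

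The other genes of opposite calls were Mrpl1, Mrpl13, Mrpl20, Mrpl35, Mrps5, Mrps7, Mrps25 and Mrps35. Mrps5, whose bacterial counterpart lies at the mRNA entry, was at 59.1, 61.9 and 60.8 in WT, 67.7, 70.1 and 68.2 in Atm-/- and 45.3, 44.2 and 43.5 in Sirt6-/-. Mrps25, a small subunit protein and the lowest of the 77 genes in WT by RPKM, was at 41.3, 42.2 and 37.7 in WT, 46.4, 48.3 and 49.5 in Atm-/- and 28.9, 32.5 and 31.7 in Sirt6-/-. Both calls held without each sample in turn for 6 of the 11, namely Mrpl19, Mrpl20, Mrpl22, Mrps5, Mrps18a and Mrps25. In Atm-/-, the rise was lost for Mrpl1 without Atm-/- replicate 1 (adjusted p = 0.0674) or WT replicate 3 (0.0609), for Mrps35 without Atm-/- replicate 2 (0.0804), and for Mrpl13 without Atm-/- replicates 2 (0.0780) or 3 (0.0708) or WT replicates 1 (0.0699) or 3 (0.103); Mrpl13 was not called with a replicate block (0.0729) or with no filter on low counts (0.0703) either. In Sirt6-/-, the fall was lost for Mrpl35 without Sirt6-/- replicate 3 (0.0853) and for Mrps7 without Sirt6-/- replicates 1 (0.0569) or 2 (0.114), and for both with library totals (0.220 and 0.415).

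Both subunits had more genes called lower in Sirt6-/- than the 37.4% of all tested genes, at 52% for the large and 65.4% for the small subunit. In Sirt6-/-, 26 of 50 large subunit genes were lower and 8 higher (median log2 fold change -0.18), and 17 of 26 small subunit genes were lower and 2, Mrps31 and Mrps27, higher (median -0.32). In Atm-/- the counts were 12 lower and 19 higher (median 0.07) for the large subunit and 6 lower and 10 higher (median 0.11) for the small subunit. The shares called higher there, 38% and 38.5%, were near the 34.7% of all tested genes. Those called lower were 24% and 23.1%, against 33.6%. Between the knockouts, 21 of 26 small subunit genes (80.8%) and 29 of 50 large subunit genes (58%) were lower in Sirt6-/-, with 1 higher in each. Of all tested genes 38.0% were lower. Genes counted as having a bacterial counterpart and those counted as particular to mitochondria had like medians, -0.29 and -0.23 in Sirt6-/- and 0.11 and 0.07 in Atm-/-. No difference between these subsets was tested. Mrps36, the gene that does not encode a ribosomal subunit, was higher in Atm-/- (log2 0.35, adjusted p = 0.00212) and not called in Sirt6-/- (-0.06).

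Genes of a chromosome tended to move together in these samples, which touches the genes described here because they are spread over 17 of 20 chromosomes. Over all other tested genes, the median log2 fold change in Atm-/- ran from -0.46 on chromosome 16 to 0.39 on chromosome 13, and in Sirt6-/- from -0.45 on chromosome 1 to 0.34 on chromosome 19. Many of the named genes lie on such chromosomes. In Atm-/- 4 of 5 members on chromosome 13 rose, Mrps30 and Mrps27 among them, where 60.9% of its other tested genes were called higher. On chromosome 11, 7 of 10 members rose, Mrpl38, Mrpl45 and Mrpl22 among them. Of its other genes 47.6% were called higher (median 0.18). On chromosome 17, 6 of 8 members fell in Atm-/- and 7 of 8 in Sirt6-/-, Mrpl18, Mrps18b and Mrps34 among them. Of the other genes there, 50.3% were called lower in Atm-/- (median -0.23) and 57.2% in Sirt6-/- (median -0.30). On chromosome 1 all 5 members fell in Sirt6-/-, Mrpl15 and Mrpl30 among them, where 59.5% of other genes were called lower. On chromosome 19, 3 of 5 members rose in Sirt6-/-, Mrpl11 and Mrpl21 among them, where 55.4% of other genes were called higher.

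**Figure D4:**
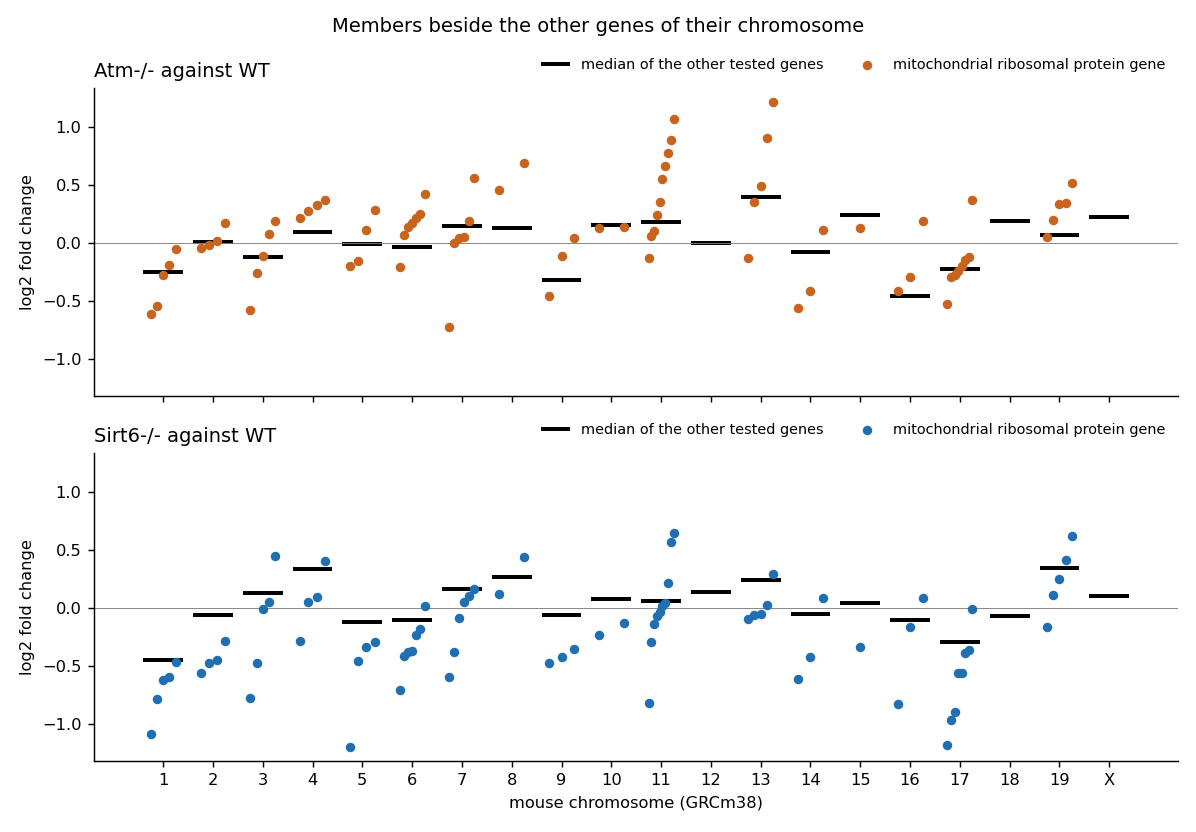
log2 fold change of the 77 genes (points) in Atm-/- (top) and Sirt6-/- MEFs (bottom) by chromosome, beside the median of the other tested genes of each chromosome (black bars). In Atm-/- the points scatter around the bars, which run from -0.46 to 0.39, and in Sirt6-/- most points lie below the bar of their chromosome, 64 of 77.

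The chromosomes' medians were therefore subtracted, a step chosen after the data had been seen. The median of the 77 genes was then 0.09 in Atm-/-, with 47 genes above and 30 below the other genes of their chromosome. In Sirt6-/- it was -0.23, with 13 above and 64 below, and between the knockouts -0.32, with 10 above and 67 below. All 3 medians kept their sign and were close to those without the subtraction. Chromosome copy number was not measured, and its part in the values of single genes was not tested.

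Transcript length was also looked at, since these genes are short, with a median listed length of 1053 bases against 2823 for all tested genes. In Sirt6-/-, tested genes of 600 to 900 bases had a median log2 fold change of 0.08, and the 17 members among them -0.29. For 900 to 1200 bases the values were 0.02 for tested genes and -0.35 for the 20 members. For 1200 to 1800 bases they were 0.00 for tested genes and -0.06 for the 17 members. The members' median lay below that of tested genes in each of these ranges, by the least in the last. In Atm-/- the members of these bins had medians of 0.14, 0.01 and 0.17, against 0.08, 0.04 and 0.05. Up to 600 bases the 8 members had -0.04 there against 0.08, and from 1800 to 2500 bases the 9 members had -0.04 against 0.02. From 2500 to 4000 bases the 3 members had 0.415 against 0.01, and above 4000 bases the 3 members had 0.17 against -0.02. The part of length in the result was not tested.

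Other genes of mitochondrial translation gave the surroundings. Of the 6 ribosomal subunits with other names that were listed, 1 was higher (16.7%) and 3 lower (50%) in Sirt6-/-. In Atm-/- 2 were higher (33.3%) and 2 lower (33.3%). Of all tested genes, 39.2% were called higher and 37.4% lower in Sirt6-/-, and 34.7% and 33.6% in Atm-/-. Ptcd3, a small subunit protein with pentatricopeptide repeats, had 101, 114 and 100 normalised CPM in WT, 175, 160 and 163 in Atm-/- and 89.0, 93.3 and 90.01 in Sirt6-/-. It was thus called in opposite directions (log2 0.65 and -0.21). Dap3, the small subunit's GTP-binding protein, fell in Atm-/- (-0.39) and had -0.11 in Sirt6-/- (adjusted p = 0.0513). Aurkaip1, a small subunit protein, rose in Sirt6-/- (0.29), and Ict1, a peptidyl-tRNA hydrolase built into the large subunit, fell there (-0.36).

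Of 23 assembly factors, 8 fell in Sirt6-/- (34.8%, near the 37.4% of all tested genes) and 5 rose (21.7%, against 39.2%). In Atm-/- 4 fell (17.4%, against 33.6%) and 9 rose (39.1%, near the 34.7% of all tested genes). C1qbp, a matrix protein that binds mitochondrial ribosomes, ran from 131, 140 and 127 in Sirt6-/- through 200, 219 and 213 in WT to 263, 255 and 264 in Atm-/-. Ngrn, needed for the stability of the large ribosomal RNA, was higher in both knockouts (log2 0.84 in Atm-/- and 1.03 in Sirt6-/-). Of 12 translation factors, 7 fell (58.3%) and 1 rose (8.33%) in Sirt6-/- (median -0.31), and 4 fell (33.3%) and 3 rose (25%) in Atm-/-. Gfm2, the factor that recycles ribosomes, was the 1 that rose in Sirt6-/- (0.76), and it rose in Atm-/- too (0.98).

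Genes for expression of the mitochondrial genome, 17 in number, also differed between the knockouts. In Atm-/- 10 rose (58.8%, against 34.7% of all tested genes) and 0 fell (against 33.6%), with a median of 0.26. In Sirt6-/- 3 rose (17.6%, against 39.2%) and 7 fell (41.2%, near the 37.4% of all tested genes). The median there was -0.07, and 0.018 with library totals. Directly, 11 were lower (64.7%, against 38.0%) and 0 higher (against 37.8%) in Sirt6-/- than in Atm-/-, with a median of -0.35. Lrpprc, which stabilizes mitochondrial mRNAs, was at 154, 159 and 164 normalised CPM in WT, 242, 230 and 232 in Atm-/- and 101, 98.8 and 96.6 in Sirt6-/-. Elac2, which cuts the 3′ ends of mitochondrial tRNAs, had the same order, with log2 fold changes of 0.52 and -0.39. Of the 17 mitochondrial aminoacyl-tRNA synthetases, 8 were higher (47.1%) and 4 lower (23.5%) in Sirt6-/- than in WT, with a median of 0.18. Directly, 6 were lower (35.3%) and 4 higher (23.5%) in Sirt6-/- than in Atm-/-, with a median of -0.10. Of the 15 mitochondrially encoded genes sought by symbol, 0 were found in the gene lists, so the transcripts that this ribosome translates were not analysed here.

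Among the regulators, 5 of 12 tested rose (41.7%) and 4 fell (33.3%) in Atm-/-, against 34.7% and 33.6% of all tested genes. In Sirt6-/- 1 of 11 tested rose (9.09%) and 8 fell (72.7%), against 39.2% and 37.4% of all tested genes. Ppargc1a, a coactivator of mitochondrial biogenesis, was at 7.59, 7.05 and 7.15 normalised CPM in Atm-/- and at 0.188 to 0.699 in WT and 0.154 to 0.300 in Sirt6-/-. Ppargc1b, its relative in the same list, was lower than WT in both knockouts, with log2 fold changes of -1.68 in Atm-/- and -4.58 in Sirt6-/-. Myc rose in Atm-/- (log2 0.64) and had 0.08 in Sirt6-/-, and Mycn was at 2.683 to 3.997 in Atm-/- and 3.36 to 5.90 in Sirt6-/- against 84.0 to 113 in WT.

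Subunits of the respiratory chain from the nucleus were lower in Sirt6-/- in a like way, with 45 of 75 lower (60%) and 13 higher (17.3%, median -0.24). Of all tested genes 37.4% were lower and 39.2% higher. In Atm-/- 27 of the subunits were lower (36%) and 22 higher (29.3%, median 0.00), near the 33.6% and 34.7% of all tested genes. Cytosolic ribosomal proteins, which share a structural role but not the organelle, went the other way in Sirt6-/-. Of 80, 43 were higher (53.8%) and 12 lower (15%) there, with a median of 0.15. In Atm-/- 30 of them were higher (37.5%) and 21 lower (26.2%, median 0.06), where the members had a median of 0.10. Proliferation genes, 15 in number, were 11 lower (73.3%) and 1 higher (6.67%) in Sirt6-/- (median -0.38). In Atm-/- 4 were lower (26.7%) and 7 higher (46.7%), with a median of 0.03. All 15 were lower in Sirt6-/- than in Atm-/-, where 38.0% of all tested genes were. They thus moved with the genes described here between the knockouts, and their part in the result was not tested.

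**Figure D5:**
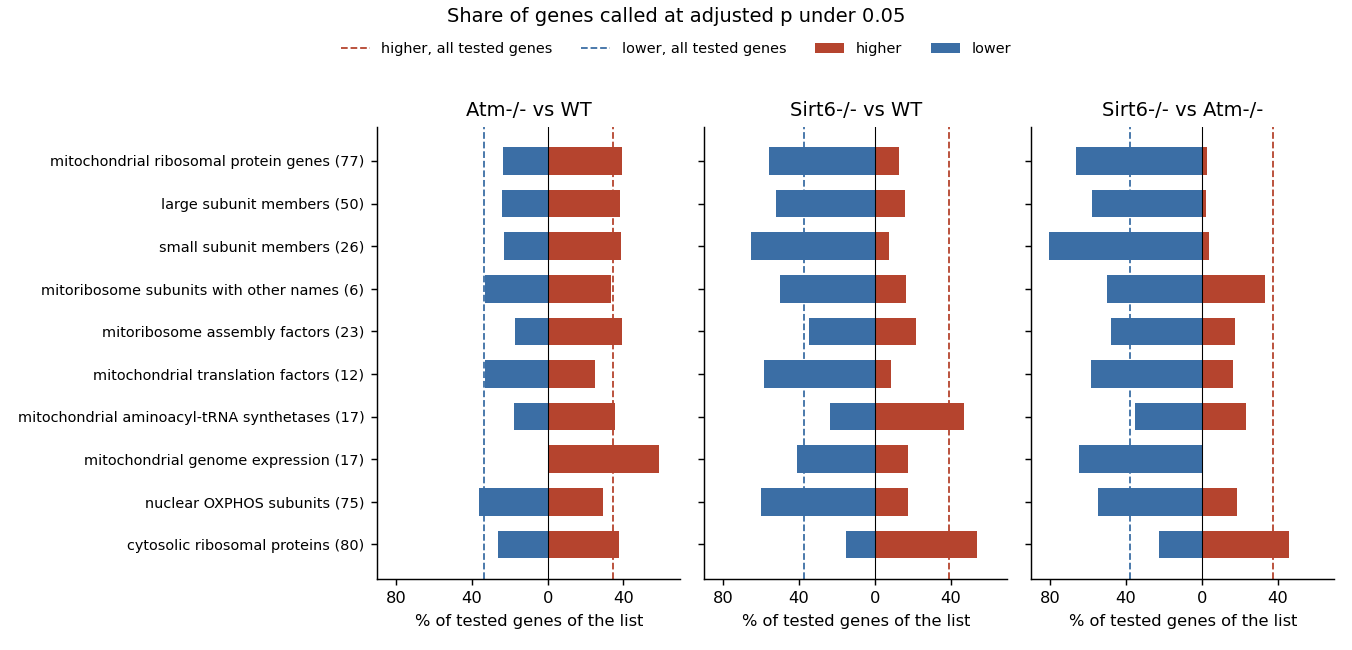
Share of the tested genes of each list (number in brackets) that was called higher (red, to the right) or lower (blue, to the left) in each comparison, with dashed lines at the shares over all tested genes. For the 77 genes the bar to the left reaches 55.8% in Sirt6-/- against WT and 66.2% in Sirt6-/- against Atm-/-, and that to the right 39.0% in Atm-/- against WT.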

How the data were processed

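Poly(A) RNA of 9 MEF samples was sequenced. The authors deposited for each sample a whole-number read count of 24341 genes and an RPKM value made from the same counts with a listed transcript length. The submitters' processing notes name build mm10. The aligner, counter, annotation and strand setting are not given in the sources used here. RPKM were used for levels between genes, for medians and leading genes within a genotype and for markers. No call or fold change rests on them. From the deposited counts, each pair of genotypes was fitted over all genes with edgeR 4.0.16 in R 4.3.3 (filterByExpr with a minimum count of 10, TMM, glmQLFit, glmQLFTest), with Benjamini-Hochberg adjusted p under 0.05 over all tested genes as a call. Standard errors were computed from the F statistic. Normalised CPM used TMM factors over the 9 samples. All 77 members passed the filter in every comparison. Gene positions are from GENCODE M21 (GRCm38), matched by symbol, and promoters from RefSeq on GRCm38.p6, 1 start per gene.

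The members and lists were chosen with earlier results of these data known, and a list is described only by counts and medians. Members named are the 8 largest rises and falls of each comparison among called genes without overlap, the 5 highest and 5 lowest in WT, the 8 of opposite calls with the largest direct difference, and 3 called in neither; for other lists, up to 2 rises and 2 falls per comparison. Mrpl13, Mrpl20, Mrps7, Mrpl28, Mrpl49, Mrps36 and the members of short counts were named after their values were seen. Fibroblast, epithelial, endothelial, leukocyte, muscle and neural markers were read from RPKM; the 6 epithelial ones summed to 11.1 to 13.9 RPKM in WT, 28.5 to 31.9 in Atm-/- and 8.85 to 11.2 in Sirt6-/-. Alternatives were DESeq2 size factors, library totals, no and a stricter filter, all 9 samples in a fit, a replicate block, the DESeq2 1.42.0 Wald test, edgeR's exact test, a 1.5-fold threshold and leaving out each sample. The procedure was tested on simulated counts.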

Additional observations from a re-analysis of the deposited data

Results flagged for a closer look

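In 11 genes the knockouts were called on opposite sides of WT, and edgeR's quasi-likelihood test of Sirt6-/- against Atm-/- also called each of them. Since the genes were picked by their calls against the same WT samples, the choice largely fixed this outcome, and the direct values are a description. The log2 difference, Sirt6-/- against Atm-/-, was -0.97 for Mrpl22, -0.89 for Mrpl19, -0.77 for Mrps18a, -0.76 for Mrpl1, -0.65 for Mrps35, -0.64 for Mrps25, -0.64 for Mrps5, -0.62 for Mrpl35, -0.58 for Mrpl20, -0.51 for Mrps7 and -0.48 for Mrpl13. With 3 samples per genotype no single sample was tested as standing apart.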

How the results depend on the processing

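Under the alternatives run, the 3 medians of the 77 genes kept their sign, and the counts stayed within 1.5 times except as follows. With library totals, 10 genes were lower in Atm-/- instead of 18, while the share of all tested genes called lower went from 33.6% to 25%. The medians were then 0.27 in Atm-/-, -0.14 in Sirt6-/- and -0.39 between the knockouts. With at least 10 counts in every sample the Atm-/- median was 0.13. With a 1.5-fold threshold, 7 genes were higher and 2 lower in Atm-/-, 2 higher and 14 lower in Sirt6-/-, and 0 higher and 17 lower in Sirt6-/- against Atm-/-. Shares of all tested genes are not given for this threshold, so these counts do not set the members beside other genes. Leaving out each sample gave 27 to 35 higher and 17 to 19 lower in Atm-/- (median 0.064 to 0.14), 9 to 12 and 40 to 44 in Sirt6-/- (median -0.30 to -0.21), and 1 to 3 and 48 to 50 between the knockouts (median -0.37 to -0.33). The number of all genes called moved as well, from 8545 to 9240 in Atm-/-, 9651 to 10217 in Sirt6-/- and 9896 to 10007 between the knockouts. Shares by direction are not given for these fits either. Without Sirt6-/- replicate 3 only Mrps21 stayed higher between the knockouts. The highest counts for Atm-/-, 35 and 19, came without WT replicate 2.

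Some signs turned. With library totals, Mrpl17 in Atm-/- had a log2 fold change of 0.16, Mrpl28 in Atm-/- had 0.01 instead of -0.15, Mcm3 in Atm-/- had 0.027, and the medians were 0.062 for translation factors in Atm-/- and 0.0099 for assembly factors and 0.018 for genome expression in Sirt6-/-. Without 1 sample, the Atm-/- median of nuclear OXPHOS subunits, 0.00, ranged from -0.037 to 0.030, and that of the regulators from -0.0021 to 0.058; the cause was not tested. Over the log2 fold changes of all named genes, 4337 of 4556 values kept sign and call, 103 lost the call and 56 gained it with the sign kept, and 60 had the other sign, in 27 pairs of gene and comparison. Of the 60, 58 were called under neither setting, such as Mrpl55 and Mrpl46 in both knockouts and Mrps24 and Mrps30 in Sirt6-/-.

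The replicate numbers did not pair the samples. Deviations of same-numbered samples correlated by -0.02 to -0.01 for WT and Atm-/-, -0.02 to 0.09 for WT and Sirt6-/- and 0.01 to 0.11 for the knockouts. With a replicate block the counts were 30 higher and 18 lower, 10 and 43, and 2 and 51, as without it, with the calls of Mrpl13 and Mrpl24 in Atm-/- lost and those of Mrpl16 and Mrps6 gained. The spread of 3 samples limits what can be said of small changes, such as those of the genes not called.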
